A study of Mus musculus with 6 samples.

Results

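The growth signals examined in miDrp1KO muscle were 10 genes, taken from the 27179 genes listed for each library. They were myostatin (Mstn), the mitochondrial protein gene Mss51, the activin receptors Acvr2a and Acvr2b, the follistatin family genes Fst, Fstl1 and Fstl3, and the IGF genes Igf1, Igf2 and Igfbp5. Members were found by gene symbol, and all 10 were listed in every library. Of these, 9 were taken for their function, whereas Mss51 was chosen by its change in the same contrast between miDrp1KO and control mice, so its difference is given as a description with no test. Of the 10 members, 9 passed the filter on low counts and Fstl3 did not.

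RNA-seq was performed on quadriceps of 3 control mice (libraries B, C and D) and 3 miDrp1KO mice (libraries A, E and F), at 3 weeks post–Dnm1l deletion. Control mice carried floxed Drp1 alleles (f/f in the labels), and in miDrp1KO mice the floxed alleles were combined with HSA-MerCreMer, a tamoxifen-activated Cre driven by the human ACTA1 promoter that acts in muscle fibres. Both genotypes received tamoxifen at 3 months of age on a C57BL/6J background, and the labels give a normal chow diet for all 6 mice. After an initial comparison of the sexes, male mice were used. Cells of the muscle other than fibres keep Dnm1l in this model, and the control mice received the drug without the Cre. Each library is labelled as a separate mouse, and the p-values measure the spread between these 6 libraries.

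Myostatin is a TGF-β family ligand secreted by muscle fibres that restrains muscle mass. It binds type II activin receptors, which recruit type I receptors and phosphorylate SMAD2 and SMAD3, and follistatins bind the ligand outside the cell and block it. IGF1 and IGF2 act through the IGF1 receptor to promote growth of muscle, and IGF binding proteins hold these ligands in the extracellular space.

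Libraries held 13989588 to 62042255 counts in control mice and 20028624 to 28829756 in miDrp1KO mice. Dnm1l itself reached 156, 114 and 140 CPM (counts scaled to a common library size by TMM) in control libraries (B, C, D) and 70.6, 81.3 and 66.2 CPM in miDrp1KO libraries (A, E, F). These groups did not overlap, and the counts cover the whole gene and every cell type of the muscle. The log2 fold change was −0.91 (SE 0.18, edgeR adjusted p = 0.362, exact permutation p = 0.1, the smallest that 3 against 3 libraries allow). All 9 markers of skeletal muscle fibres, among them Acta1 and Ckm, were detected in every library. Only 2 of 16483 genes tested, or 0.0121%, passed an adjusted p of 0.05 in edgeR's quasi-likelihood test, which is the background for every edgeR call below. Library composition also varied within groups: ribosomal RNA genes and Lars2 took 1.75% to 30.1% of counts, summed slow fibre markers ran from 54.2 to 446 CPM in control libraries and from 82.0 to 728 CPM in miDrp1KO libraries, and summed adipocyte markers ran from 428 to 691 CPM and from 284 to 408 CPM, respectively.

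Because Mstn and Mss51 showed the widest spread between libraries among the members, the bases upstream of their start sites were examined. Sequences are from RefSeq (GRCm38.p6) and cover the 250 bases before the start, written 5′ to 3′ on the strand of the gene. Mstn lies on the plus strand, and its window is chr1:53061390-53061639. Capitals mark E-boxes (CANNTG), the sequence bound by myogenic factors such as MyoD.
Mstn: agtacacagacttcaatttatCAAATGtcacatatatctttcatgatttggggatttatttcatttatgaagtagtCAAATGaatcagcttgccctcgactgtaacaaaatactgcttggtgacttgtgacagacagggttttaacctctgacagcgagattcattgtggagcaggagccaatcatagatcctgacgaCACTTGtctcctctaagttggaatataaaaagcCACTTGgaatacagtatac

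Mss51 lies on the minus strand, and its window is chr14:20496902-20497151. Capitals mark the palindromic SMAD binding element GTCTAGAC.
Mss51: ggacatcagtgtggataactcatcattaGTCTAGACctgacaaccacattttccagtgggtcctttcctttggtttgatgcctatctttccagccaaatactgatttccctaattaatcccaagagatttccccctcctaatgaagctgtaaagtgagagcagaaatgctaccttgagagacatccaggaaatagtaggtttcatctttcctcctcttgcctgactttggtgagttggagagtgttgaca

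The Mstn window held 4 E-boxes, which began 229, 174, 52 and 19 bases before the start, and 3.84% of 32851 mouse promoters held as many in a window of this length. At least 1 E-box was found in 66.2% of promoters. The Mss51 window held no E-box but held 1 SMAD binding element, beginning 222 bases before the start, and 0.167% of promoters held this element. Promoters were matched for 9 of the 10 members (12 windows), Fst having no entry in the table used. Of these 9 genes, 5 had an E-box (Mstn, Fstl3, Igf1, Igf2 and Igfbp5) and 3 had the shorter SMAD core CAGACA, which does not lie within GTCTAGAC (Mstn, Fstl3 and Igf2, against 17.1% of promoters). These are counts of genes, whereas the shares are of single promoters. Igf2 was searched in more than 1 window, and its SMAD core lay in windows 2 and 4. None held the NR4A response element AAAGGTCA (1.34% of promoters), the cAMP response element TGACGTCA (1.55%) or the FoxO element GTAAACA (3.17%). All motifs were searched on both strands in all 12 windows, and the shares take no account of this number of searches. A match describes these letters alone.

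Mstn was not called and differed widely between mice of the same genotype. The gene (Entrez 17700, chr1:53061640-53068079 in GRCm38, plus strand) was measured at 62.5, 151 and 102 CPM in control libraries (B, C, D) and at 145, 42.7 and 63.3 CPM in miDrp1KO libraries (A, E, F). Control library B and miDrp1KO libraries E and F were low, control C and miDrp1KO A were high, and the groups overlapped. Means were 105 ± 44.2 CPM in control mice and 83.7 ± 54.1 CPM in miDrp1KO mice (SD, n = 3 each), a log2 fold change of −0.33 (SE 0.55, edgeR adjusted p = 0.867, exact permutation p = 0.6). In bulk muscle, fewer cells of a type and less RNA per cell cannot be told apart. The spread of Mstn was itself large. Its coefficient of variation in control mice was 42.1% (median of all tested genes 16.9%), and its biological coefficient of variation in the edgeR fit was 0.465, at the 94.1 percentile of tested genes (median 0.227). The sign and size rested on single libraries: the log2 fold change was −0.96 without miDrp1KO replicate A (adjusted p = 0.268), −0.01 without miDrp1KO replicate E and 0.0096 without control replicate C, over a range of adjusted p from 0.268 to 0.999.

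The libraries low in Mstn were those high in slow fibre markers. The summed slow markers (8 of 8 tested, including the slow myosin gene Myh7) reached 446 CPM in control B, 728 CPM in miDrp1KO E and 647 CPM in miDrp1KO F, and these were the 3 libraries with the lowest Mstn. In the other 3 libraries (C, D and A) the slow sum was 54.2 to 87.3 CPM and Mstn was 102 to 151 CPM. Both genotypes were present on each side of this division, which was noticed after the values were seen. The part of fibre composition in the Mstn values was not tested.

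Mss51, which encodes a mitochondrial protein of fast muscle whose transcript falls when myostatin signalling is inhibited, was the member chosen for its difference. The gene (Entrez 74843, chr14:20482867-20496901, minus strand) was measured at 10.9, 49.5 and 50.7 CPM in control libraries (B, C, D) and at 12.0, 8.95 and 15.4 CPM in miDrp1KO libraries (A, E, F). Control libraries C and D were high, whereas control B lay within the range of the miDrp1KO libraries, so the groups overlapped. The mean was 37.0 ± 22.6 CPM in control mice and 12.1 ± 3.21 CPM in miDrp1KO mice (SD, n = 3 each), a ratio of means of 0.327 and a log2 fold change of −1.62 (SE 0.64). Leaving out control replicate B gave −2.03 (SE 0.23), and leaving out control replicate D gave −1.3 (SE 0.69), the ends of its range over all alternatives. The control coefficient of variation was 61.1%, with a 4.64-fold span between control libraries B and D and a 1.72-fold span among miDrp1KO libraries.

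Mss51 and Mstn separated the libraries differently. Library A (miDrp1KO) had Mstn at the level of the highest control library and a slow marker sum of 82.0 CPM, yet its Mss51 was as low as in the other miDrp1KO libraries. Summed fast fibre markers were 97200, 114000 and 115000 CPM in control libraries (B, C, D) and 86400, 45800 and 48900 CPM in miDrp1KO libraries (A, E, F). Library A thus lay below every control library in this sum. Myh4 was its largest part, at 40400 CPM in A and 49900 to 62900 CPM in control libraries. For Actn3, Mybpc2, Pvalb, Myl1 and Myh1, library A lay above the lowest control library. Of the 8 markers, 7 were lower in miDrp1KO mice, 4 had an unadjusted edgeR p under 0.05 and 3 had groups that did not overlap. Over all genes tested, these shares were 7911 of 16483, 10.9% and 18.0%. The part of the fast markers in the Mss51 values was not tested. In units of CPM per kilobase of exon, the ratio of Mss51 to Mstn was 0.259, 0.486 and 0.739 in control libraries (B, C, D) and 0.123, 0.311 and 0.359 in miDrp1KO libraries (A, E, F). The ratio was highest in control C and D and lowest in miDrp1KO A, and control B again lay within the miDrp1KO range.

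**Figure D1:**
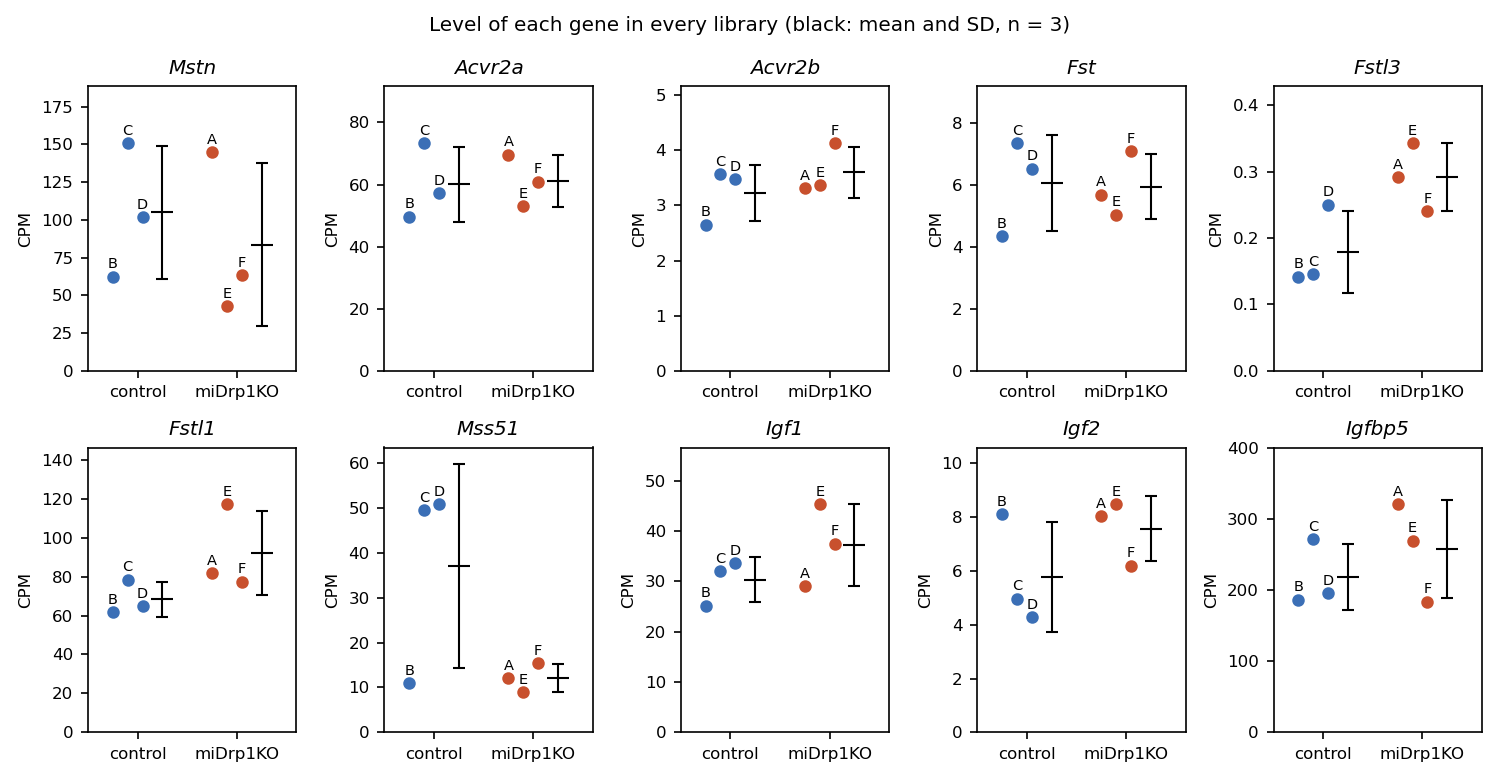
Level of the 10 members in each library in CPM, with control libraries B, C and D in blue, miDrp1KO libraries (A, E, F) in orange, and the mean and SD (n = 3) in black, each panel having its own axis from 0. Mss51 was high in control C and D alone, at 49.5 and 50.7 CPM, whereas for Mstn the high libraries were control C at 151 CPM and miDrp1KO A at 145 CPM.

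The type II receptors for myostatin and activin had log2 fold changes smaller than their standard errors. Acvr2a (Entrez 11480, chr2:48814109-48903269, plus strand) was measured at 49.7, 73.4 and 57.2 CPM in control libraries (B, C, D) and at 69.6, 53.1 and 60.9 CPM in miDrp1KO libraries (A, E, F). All 3 miDrp1KO libraries lay inside the control range. Means were 60.1 ± 12.1 and 61.2 ± 8.26 CPM (SD, n = 3 each), and the log2 fold change of 0.03 (SE 0.19, edgeR adjusted p = 0.974, exact permutation p = 1.0) turned to −0.05 without miDrp1KO replicate A and to −0.07 without control replicate B. Of the exonic bases of Acvr2a, 7.8% overlap Orc4 on the opposite strand.

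Acvr2b (Entrez 11481, chr9:119402118-119434995, plus strand), the type II receptor with the higher affinity for myostatin, was measured at 2.65, 3.57 and 3.48 CPM in control libraries (B, C, D) and at 3.31, 3.36 and 4.13 CPM in miDrp1KO libraries (A, E, F). Control B was the lowest library, miDrp1KO F was the highest, and the other 4 lay close together. The log2 fold change was 0.15 (SE 0.24, edgeR adjusted p = 0.854, exact permutation p = 0.6), and it ran from 0.05 without control replicate B to 0.24 without control replicate D or under upper quartile scaling. Per kilobase of exon, Acvr2a exceeded Acvr2b 12.8 ± 1.43-fold in control and 11.9 ± 2.33-fold in miDrp1KO mice (SD, n = 3 each), with each of the 6 libraries between 10.2 and 14.5.

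Among the follistatin family, Fst, the main extracellular inhibitor of myostatin and activin, was near equal between genotypes. Fst (Entrez 14313, chr13:114452290-114458951, minus strand) was measured at 4.36, 7.36 and 6.53 CPM in control libraries (B, C, D) and at 5.69, 5.05 and 7.1 CPM in miDrp1KO libraries (A, E, F), from 92 to 392 counts per library. The miDrp1KO libraries lay within the control range, where B was lowest and C highest. Means were 6.08 ± 1.55 and 5.95 ± 1.05 CPM (SD, n = 3 each). The log2 fold change of −0.03 (SE 0.24, edgeR adjusted p = 0.974, exact permutation p = 0.9) turned to 0.06 under upper quartile scaling, and its sign changed under 7 of 13 alternatives.

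Fstl3, which also binds myostatin and activins, was barely detected, with 3, 2 and 15 counts in control libraries (B, C, D) and 6, 14 and 5 in miDrp1KO libraries (A, E, F). These counts correspond to 0.142, 0.146 and 0.25 CPM in control mice and 0.292, 0.343 and 0.24 CPM in miDrp1KO mice. The gene (Entrez 83554, chr10:79777272-79782630, plus strand) shares 47.3% of its exonic bases with Prss57 on the opposite strand. The strand setting of the counting is not given in the sources used here. At this depth no difference was detectable.

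Fstl1, a secreted follistatin-like glycoprotein made by mesenchymal cells, had the lowest p-value of the members tested. Fstl1 (Entrez 14314, chr16:37776873-37836514, plus strand) was measured at 61.6, 78.4 and 64.7 CPM in control libraries (B, C, D) and at 81.8, 117 and 77.3 CPM in miDrp1KO libraries (A, E, F). Library E (miDrp1KO) stood highest, and the groups overlapped only by miDrp1KO F, which lay just under control C. Means were 68.3 ± 8.92 and 92.0 ± 21.7 CPM (SD, n = 3 each), a log2 fold change of 0.43 (SE 0.2, edgeR unadjusted p = 0.0526, adjusted p = 0.463, exact permutation p = 0.2). The value was 0.22 without miDrp1KO replicate E, and the adjusted p ran from 0.229 to 0.877 over the alternatives. Library E also had the highest sums of fibroblast markers (1090 CPM, against 562 to 830 CPM in the other 5) and of tendon markers (491 CPM, against 114 to 276 CPM). Library A, next highest in Fstl1, had a fibroblast sum of 624 CPM and the lowest tendon sum, 114 CPM. The part of these markers in the Fstl1 values was not tested.

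Igf1, a growth factor made by muscle and liver, was also highest in library E. Igf1 (Entrez 16000, chr10:87858265-87937042, plus strand) was measured at 25.2, 32.1 and 33.7 CPM in control libraries (B, C, D) and at 29.0, 45.3 and 37.5 CPM in miDrp1KO libraries (A, E, F). Libraries E and F (miDrp1KO) lay above all controls, whereas miDrp1KO A lay among them. Means were 30.3 ± 4.48 and 37.3 ± 8.16 CPM (SD, n = 3 each), a log2 fold change of 0.30 (SE 0.19, edgeR adjusted p = 0.594, exact permutation p = 0.3). Single libraries moved this value from 0.13 without miDrp1KO replicate E to 0.47 without miDrp1KO replicate A, with adjusted p between 0.229 and 0.898 over the alternatives.

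Igf2, the fetal growth factor that is imprinted and retained at low level in adult muscle, followed the libraries in the reverse order to Mss51. Igf2 (Entrez 16002, chr7:142650766-142666816, minus strand) was measured at 8.1, 4.96 and 4.28 CPM in control libraries (B, C, D) and at 8.02, 8.46 and 6.19 CPM in miDrp1KO libraries (A, E, F). Control C and D were lowest, and control B stood with the miDrp1KO libraries. From E, B, A and F to C and D, falling Igf2 matched rising Mss51 at every step over the 6 libraries, a relation noticed after the values were seen. Means of Igf2 were 5.78 ± 2.04 and 7.56 ± 1.2 CPM (SD, n = 3 each), a log2 fold change of 0.40 (SE 0.26, edgeR adjusted p = 0.596, exact permutation p = 0.3), which became 0.74 without control replicate B (adjusted p = 0.526), 0.29 without control replicate C and 0.22 without control replicate D. Counts of Igf2 ran from 68 to 345 per library, and 62.8% of its exonic bases also belong to the read-through gene Gm49394 on the same strand, so that reads of the pair cannot be separated here.

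Igfbp5, an IGF binding protein abundant in muscle, was among the most abundant members. Igfbp5 (Entrez 16011, chr1:72857932-72874884, minus strand) was measured at 187, 272 and 196 CPM in control libraries (B, C, D) and at 321, 270 and 184 CPM in miDrp1KO libraries (A, E, F). Library A (miDrp1KO) was highest and miDrp1KO F was lowest, so the control range lay inside the miDrp1KO range. Means were 219 ± 46.3 and 258 ± 69.4 CPM (SD, n = 3 each), a log2 fold change of 0.24 (SE 0.24, edgeR adjusted p = 0.749, exact permutation p = 0.7). The value was 0.08 without miDrp1KO replicate A, 0.16 without control replicate B, 0.41 without control replicate C and 0.46 without miDrp1KO replicate F.

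Across the members, 0 of the 8 tested members other than Mss51 passed the adjusted threshold in edgeR or limma voom, and DESeq2 called 0 of the 5 that it gave an adjusted p (Fst, Igf2 and Acvr2b had none). Moreover, 0 of 8 had an unadjusted p under 0.05 in edgeR (10.9% of all genes tested) or limma voom (12.8%). DESeq2 gave 1 of 8 an unadjusted p under 0.05, beside 10.4% of all genes, and this was Fstl1 (Wald test in DESeq2, adjusted p = 0.267). Fstl1 was also under 0.05 unadjusted in edgeR with RLE or upper quartile scaling, with no filter, with at least 10 counts in every library and without ribosomal RNA genes. In that order, 1794 of 16483, 1831 of 16483, 2487 of 26457, 1536 of 13517 and 1780 of 16226 genes were under 0.05. Without miDrp1KO replicate A, 17.5% of all genes tested had an unadjusted p under 0.05 in edgeR, and 3 of 8 members did, namely Mstn (−0.96, adjusted p = 0.268), Fstl1 (0.53, adjusted p = 0.229) and Igf1 (0.47, adjusted p = 0.229). With other libraries left out, 1 of 8 was under 0.05 unadjusted in edgeR without control replicate B (Igf2, adjusted p = 0.526, all genes 8.80%), without control replicate C (Fstl1, adjusted p = 0.469, all genes 10.5%) and without miDrp1KO replicate F (Fstl1, adjusted p = 0.639, all genes 7.79%). The count was 0 of 8 without control replicate D (all genes 5.36%) and without miDrp1KO replicate E (all genes 7.18%). None of the 9 members that passed the filter had groups of libraries that did not overlap, against 18.0% of all genes tested. The median log2 fold change was 0.20 over the 8 members and 0.02 over all genes tested, with 6 of the 8 higher in miDrp1KO mice.

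Levels were compared between members per kilobase of exon. In control mice Mstn (38.8 ± 16.3 CPM per kb) and Igfbp5 (36.4 ± 7.71) were highest and did not differ beyond their spread. Mss51 (20.3 ± 12.4), Fstl1 (13.9 ± 1.82) and Acvr2a (10.6 ± 2.13) came next, with overlapping libraries between neighbours, and Igf1 (3.06 ± 0.453) stood apart from those above and below. Fst (1.33 ± 0.338), Igf2 (1.01 ± 0.356) and Acvr2b (0.823 ± 0.129) again overlapped between neighbours, and Fstl3 (0.0733 ± 0.025) was lowest of all. In miDrp1KO mice Igfbp5 (43.0 ± 11.5), Mstn (30.9, from 15.8 to 53.6 between libraries) and Fstl1 (18.7 ± 4.42) led, and Mss51 was at 6.63 ± 1.76 CPM per kb, below Acvr2a at 10.8 ± 1.45.

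Pathway genes beyond the members were taken from lists covering the ligands, receptors, inhibitors, SMAD proteins and IGF regulators, with 94 of 104 genes tested. None of the 94 passed the adjusted threshold in edgeR, 16 had an unadjusted p under 0.05 (7 higher and 9 lower in miDrp1KO mice), and 17 had groups that did not overlap (8 higher and 9 lower). These were 17.0% and 18.1% of the 94 genes, beside 10.9% and 18.0% of all genes tested, and the median log2 fold change was 0.0099. The count of 16 became 10 of 97 without control replicate D (all genes 5.36%), 10 of 94 without miDrp1KO replicate E (all genes 7.18%) and 23 of 96 without miDrp1KO replicate A (all genes 17.5%). DESeq2 called 2 of the 33 pathway genes that it gave an adjusted p, Smad3 (adjusted p = 0.019) and Igfbp6 (adjusted p = 0.0483), beside 94 of the 4018 genes that it gave one, or 2.34%.

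Among the genes of the intracellular arm, SMADs and their regulators, 12 of 15 were lower in miDrp1KO mice and the median log2 fold change was −0.16, beside 7911 of 16483 genes lower and a median of 0.02 over all genes tested. In edgeR 0 of 15 passed the adjusted threshold, 3 of 15 had an unadjusted p under 0.05 (10.9% of all genes) and 4 of 15 had groups that did not overlap (18.0% of all genes). Smad3, a transducer of myostatin and activin, was measured at 118, 140 and 106 CPM in control libraries (B, C, D) and at 74.8, 73.5 and 50.3 CPM in miDrp1KO libraries (A, E, F). Every miDrp1KO library lay below every control library, and the log2 fold change was −0.87 (SE 0.2, edgeR unadjusted p = 0.00116, adjusted p = 0.362). Smad4, the partner that carries SMAD complexes to the nucleus, was measured at 67.9, 71.6 and 72.9 CPM in control and 58.5, 51.9 and 48.3 CPM in miDrp1KO libraries, also without overlap (log2 fold change −0.42, SE 0.16, edgeR adjusted p = 0.393). Zfyve9, the SARA adaptor that presents SMAD2 and SMAD3 to the receptor, was measured at 54.5, 68.7 and 64.0 CPM against 49.7, 41.1 and 48.3 CPM (log2 fold change −0.43, SE 0.16, edgeR adjusted p = 0.407). Smad2 showed a smaller gap, from 29.9 ± 0.693 to 25.1 ± 2.16 CPM (SD, n = 3 each, log2 fold change −0.25, SE 0.15, edgeR adjusted p = 0.564), and is named because its groups did not overlap. Summed muscle fibre markers ran from 201000 to 255000 CPM in control libraries and from 101000 to 202000 CPM in miDrp1KO libraries. Ttn was the largest part of this sum, at 87800 to 141000 CPM in control and 26300 to 104000 CPM in miDrp1KO libraries. Of the 9 markers 8 were lower in miDrp1KO mice, among them Mylpf with near equal means (8550 and 8360 CPM), and Mb was higher. The part of fibre markers in the SMAD values was not tested.

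Among 12 SMAD response genes, 3 had an unadjusted p under 0.05 (10.9% of all genes tested), and these 3 were higher in miDrp1KO mice. In the list as a whole 7 genes were higher and 5 lower, with a median log2 fold change of 0.30. Bambi, a decoy receptor that dampens TGF-β signals, was measured at 1.14, 0.656 and 0.983 CPM against 1.41, 2.23 and 1.92 CPM (log2 fold change 0.98, SE 0.36, edgeR adjusted p = 0.393). The groups did not overlap. Ltbp2, a matrix protein related to the latent TGF-β binding proteins, had a log2 fold change of 1.03 (SE 0.44, edgeR adjusted p = 0.436) with overlapping groups.

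The other ligands of the activin class gave no unadjusted p under 0.05 in 12 genes tested, nor did the 10 other genes of the follistatin domain family, beside 10.9% of all genes. Gdf11, the closest relative of Mstn, was at 11.1 ± 1.84 CPM in control and 9.52 ± 2.04 CPM in miDrp1KO mice (SD, n = 3 each, edgeR adjusted p = 0.714). Of 11 other receptors 1 had an unadjusted p under 0.05. This was Acvr1c, a type I receptor of the activin class found in fat, which was measured at 7.24, 12.6 and 9.16 CPM in control libraries (B, C, D) and at 6.22, 2.94 and 6.29 CPM in miDrp1KO libraries (A, E, F) (log2 fold change −0.92, SE 0.31, edgeR adjusted p = 0.392). The order of the 6 libraries for Acvr1c, from C, D and B to F, A and E, was the order of the summed adipocyte markers. All 7 adipocyte markers were lower in miDrp1KO mice, 3 of 7 with an unadjusted p under 0.05 (over all genes tested, 7911 of 16483 and 10.9%), none was at 0 in any library, and their part in the Acvr1c value was not tested.

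Of 8 other inhibitors, Chrd and Bambi had an unadjusted p under 0.05, and of 6 processing proteases Pcsk6 and Furin did, beside 10.9% of all genes tested. Chrd, chordin, a BMP antagonist, was measured at 1.47, 2.11 and 2.07 CPM in control libraries (B, C, D) and at 3.16, 4.29 and 4.18 CPM in miDrp1KO libraries (A, E, F), and these groups did not overlap (log2 fold change 1.04, SE 0.27, edgeR adjusted p = 0.362). Pcsk6 and Furin, proprotein convertases of the class that cleaves TGF-β family precursors, went in opposite directions. Pcsk6 was measured at 20.5, 27.5 and 24.4 CPM in control and 32.6, 45.8 and 37.0 CPM in miDrp1KO libraries (log2 fold change 0.67, SE 0.18, edgeR adjusted p = 0.362). Furin was measured at 24.1, 27.3 and 25.4 CPM in control and 20.6, 19.9 and 19.6 CPM in miDrp1KO libraries (log2 fold change −0.36, SE 0.14, edgeR adjusted p = 0.417).

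**Figure D2:**
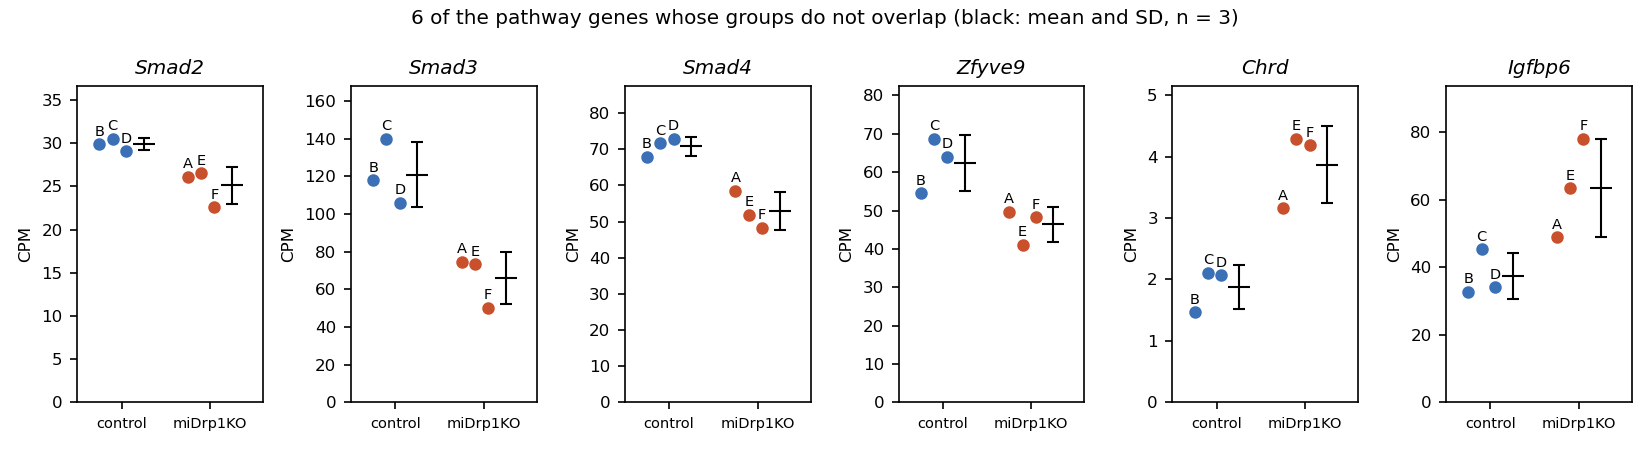
CPM in each library for 6 of the pathway genes whose groups did not overlap, shown as examples (control B, C and D in blue, miDrp1KO A, E and F in orange, mean and SD with n = 3 in black, axes from 0). Smad3 ran from 106 to 140 CPM in control and from 50.3 to 74.8 CPM in miDrp1KO libraries, and no gene shown passed the edgeR adjusted threshold.

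On the IGF side, 2 of 4 other receptors had an unadjusted p under 0.05, Igf2r lower and Insrr higher, the latter under 1 CPM on average, beside 10.9% of all genes tested. Igf1r, the receptor that signals, was at 29.5 ± 4.62 CPM in control and 31.0 ± 7.49 CPM in miDrp1KO mice (SD, n = 3 each, log2 fold change 0.07, SE 0.20, edgeR adjusted p = 0.924). Igf2r, the receptor that clears IGF2 and carries mannose 6-phosphate proteins to lysosomes, was measured at 182, 129 and 144 CPM in control libraries (B, C, D) and at 117, 106 and 60.1 CPM in miDrp1KO libraries (A, E, F). Library F was lowest, the groups did not overlap, and the log2 fold change of −0.68 (SE 0.25, edgeR adjusted p = 0.393) became −0.42 without miDrp1KO replicate F. Igfbp6, a binding protein with preference for IGF2, was measured at 32.8, 45.3 and 34.1 CPM in control and 48.9, 63.4 and 78.1 CPM in miDrp1KO libraries, again without overlap (log2 fold change 0.77, SE 0.21, edgeR adjusted p = 0.362). Of 10 other binding proteins and IGF regulators, 1, Igfbp6, had an unadjusted p under 0.05. Igf2, its ligand, had 2 control libraries below all miDrp1KO libraries, as given above.

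Of 12 genes for IGF adaptors, mRNA binding proteins and the growth hormone axis, 3 had an unadjusted p under 0.05 (10.9% of all genes tested), and these 3 were lower in miDrp1KO mice. In the list as a whole 5 genes were higher and 7 lower, with a median log2 fold change of −0.09. The 3 genes were Irs2, an insulin receptor substrate (log2 fold change −0.53, SE 0.22, edgeR adjusted p = 0.422), Igf2bp3, which binds Igf2 mRNA (−0.52, SE 0.24, edgeR adjusted p = 0.455), and Stat5b, which carries the growth hormone signal to Igf1 (−0.46, SE 0.21, edgeR adjusted p = 0.448). Stat5b was measured at 184, 231 and 185 CPM in control and 181, 129 and 125 CPM in miDrp1KO libraries, so that miDrp1KO A lay just under the lowest control library. The groups of Irs2 and Igf2bp3 overlapped, and Irs2 was at −0.34 without miDrp1KO replicate F.

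**Figure D3:**
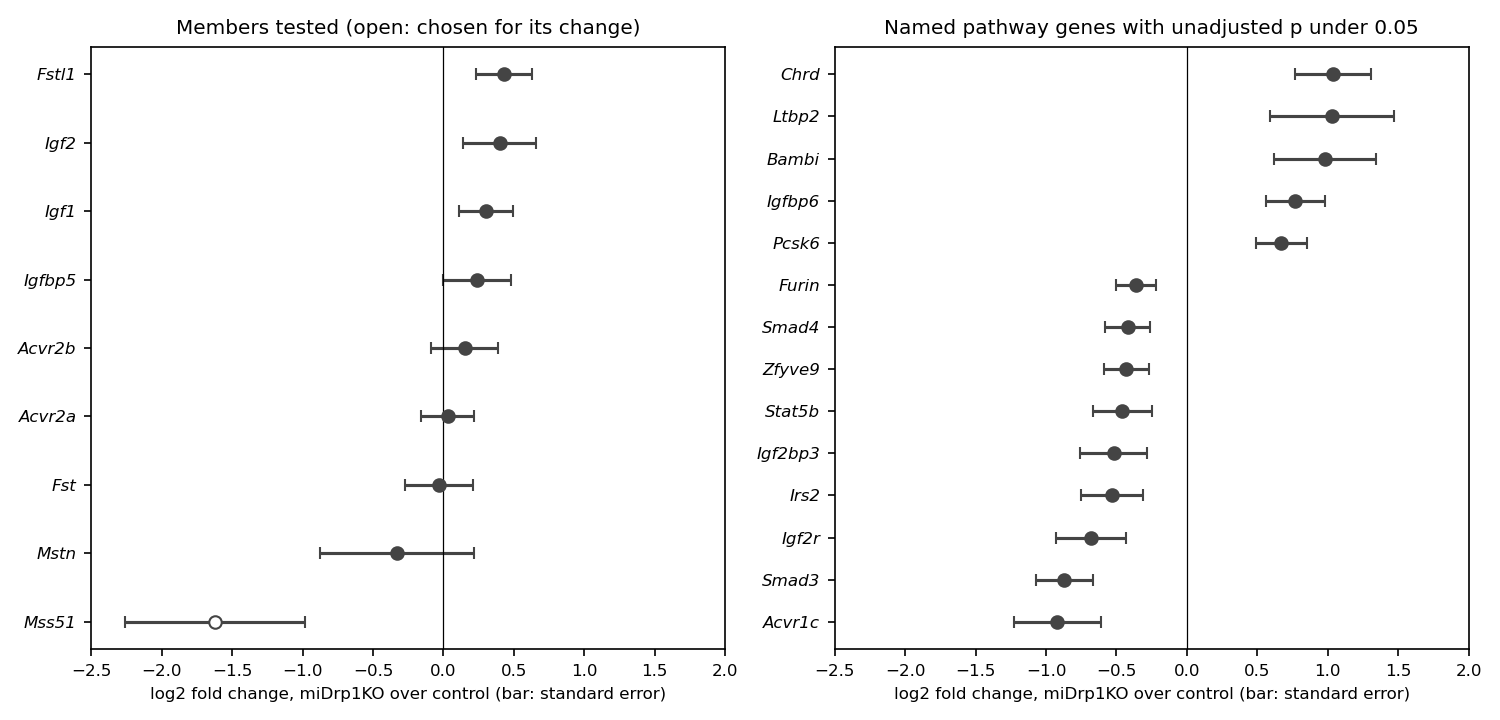
Log2 fold change of miDrp1KO over control from edgeR with its standard error, for the 9 members that passed the filter (left, with Mss51 as an open point because it was chosen for its change) and for the other pathway genes named in the text with an unadjusted p under 0.05 and a mean of at least 1 CPM (right, chosen by that p). Among members Mss51 lay lowest at −1.62 and Fstl1 highest at 0.43, and the signs of Mstn, Fst and Acvr2a changed when single libraries were left out.

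The genes most like Mstn and Mss51 across the 6 libraries were found by Pearson correlation of log2 CPM over 13446 genes with a mean of at least 1 CPM, as a description with no p. For Mstn they included Limd1 (r = 0.997), Gm12250 (0.996), Nans (0.994) and Herpud2 (0.993). For Mss51 they were Bmi1 (0.988), Lancl2 (0.978), Phkg2 (0.976), Ilk (0.975) and Mib2 (0.973). The points share library size, composition and genotype.

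**Figure D4:**
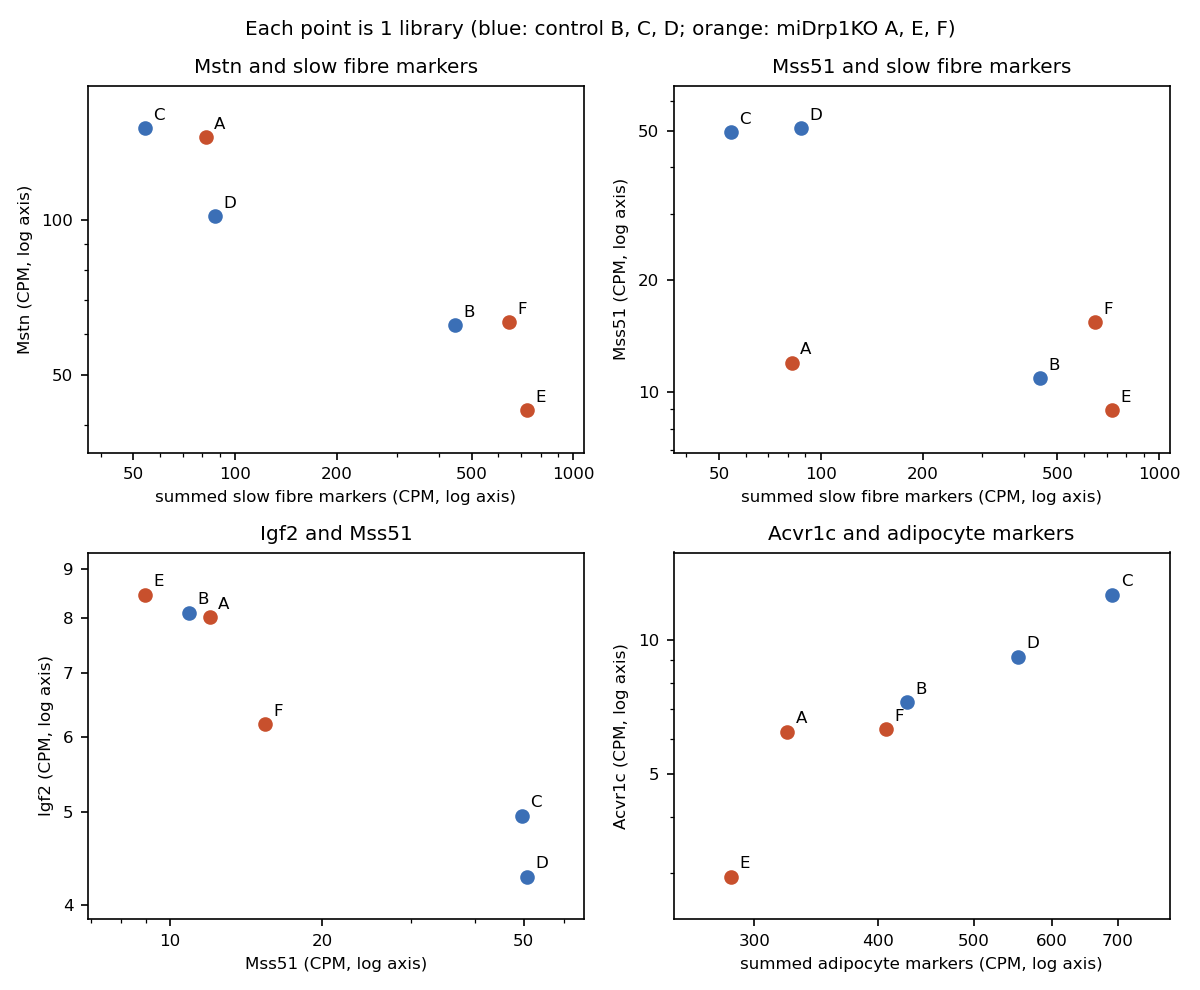
Each point is 1 library (control B, C and D in blue, miDrp1KO A, E and F in orange), with CPM on log axes, for Mstn and Mss51 against summed slow fibre markers, Igf2 against Mss51, and Acvr1c against summed adipocyte markers. Mstn ran from 42.7 to 63.3 CPM in the 3 libraries with the highest slow sums, and miDrp1KO A combined a low slow sum of 82.0 CPM with Mss51 at 12.0 CPM.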

How the data were processed

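Quadriceps RNA of 3 control and 3 miDrp1KO mice was grouped by the genotype label, and the letters of the library names served as replicate names. The authors deposited raw counts per gene for each library, whole numbers without normalization. Per the study's methods, ribosomal RNA was depleted with a stranded total RNA kit, libraries were combined in pools (library-to-pool assignment not given in the sources used here), and Rsubread was used to align reads to GRCm38 and to count them. The submitters' processing notes also name FastQC and DESeq2 1.30.0. The strand setting and the handling of reads on overlapping genes are not given in the sources used here, so such genes are uncertain.

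Counts of 27179 genes, of which 874 lack a symbol, were normalised by TMM and filtered with filterByExpr on genotype. The 16483 genes kept were compared with the quasi-likelihood F test of edgeR 4.0.16 under R 4.3.3, with a robust fit. P-values were adjusted over all of them by Benjamini-Hochberg, at a threshold of 0.05. The library totals of 13989588 to 62042255 counts and 3 mice per group set the precision, with a common biological coefficient of variation of 0.252. CPM used TMM library sizes, and CPM per kb divided them by the GENCODE M21 union exonic length. Coordinates of genes are from the same annotation (GRCm38). Single genes were also compared by a two-sided exact permutation test. The scripts were tested on simulated data. Alternatives were DESeq2 1.42.0, limma voom 3.58.1, RLE and upper quartile scaling, no filter, at least 10 counts in every library, removal of 29 ribosomal RNA genes and Lars2 together, and each library left out in turn.

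The members and lists were chosen with earlier results of these data known. Genes named are the members, Dnm1l, the listed pathway genes with an unadjusted p under 0.05 and a mean of at least 1 CPM, and the 5 genes most correlated with Mstn and with Mss51. Smad2, Gdf11, Igf1r, Insrr, H19, Ghr, Socs2 and Dcn were named after their values were seen. Some items that this rule selects are not reported here.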

Additional observations from a re-analysis of the deposited data

How the results depend on the processing

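The number of genes called by edgeR was 2, and it was 94 with DESeq2, 8 with no filter on low counts and 1 to 7 when single libraries were left out (1 without miDrp1KO replicate E or F, 7 without miDrp1KO replicate A). Among the members other than Mss51, which was not tested, the number called was 0 under every alternative run. DESeq2 gave an adjusted p to only 5 of these 8. The number of other pathway genes called was 0 except with DESeq2, where it was 2 (Smad3 and Igfbp6). DESeq2 also called Dnm1l (adjusted p = 0.00382). Fst changed sign to 0.06 under upper quartile scaling, 0.01 with at least 10 counts in every library and 0.0065 without ribosomal RNA genes and Lars2, and it ran from −0.20 to 0.09 with single libraries left out. Over single libraries left out, Mstn ran from −0.96 to 0.0096 and Acvr2a from −0.07 to 0.17. Of the 323 alternative values of single genes, 310 kept their direction and their side of the threshold. Upper quartile scaling moved the median log2 fold change of all genes from 0.02 to 0.11. No paired analysis was run because the labels used here name no pairs of control and miDrp1KO mice. With 3 libraries a group, the permutation p cannot go below 0.1, and Fstl3 with 2 to 15 counts was below what this depth can compare. The cause of these shifts was not tested.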

Other observations

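H19, the imprinted transcript next to Igf2, was named after its values were seen, as were Ghr, Socs2 and Dcn. It was measured at 770, 433 and 461 CPM in control libraries (B, C, D) and at 616, 936 and 811 CPM in miDrp1KO libraries (A, E, F). Control C and D were lowest, as for Igf2, and control B lay among the miDrp1KO libraries. The log2 fold change was 0.51 (SE 0.27, edgeR adjusted p = 0.527). The growth hormone receptor gene Ghr was at 265 ± 31.2 CPM in control and 222 ± 25.1 CPM in miDrp1KO mice (SD, n = 3 each, log2 fold change −0.26, SE 0.19, edgeR adjusted p = 0.637). Socs2, a target of growth hormone signalling, was measured at 8.1, 13.6 and 6.35 CPM in control libraries (B, C, D) and at 16.8, 7.97 and 8.69 CPM in miDrp1KO libraries (A, E, F), with library A highest and the groups overlapping. Dcn, decorin, a matrix proteoglycan that can bind myostatin, was at 760 ± 156 CPM in control and 918 ± 109 CPM in miDrp1KO mice (SD, n = 3 each, log2 fold change 0.27, SE 0.23, edgeR adjusted p = 0.693).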
